A study of Mus musculus with 12 samples.

Results

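The transcripts of 10 heat shock chaperone genes were followed in mouse lung: Hspa1a, Hspa1b, Hsph1, Dnajb1, Hspb1, Hsp90aa1, Hspa8, Bag3, Hspd1 and Hspe1. They were chosen by gene symbol, each symbol had 1 row among the 38349 genes of the deposited table, and all 10 passed the filter on low counts. Bulk RNA sequencing covered 12 lung libraries from wildtype mice in 4 groups of 3. Control is the normal group, and ALI is acute lung injury from hypoxia and lipopolysaccharide (LPS), a bacterial cell wall component. The MSC and tpMSC groups are injured lungs treated with one preparation or the other. The labels do not expand these abbreviations, say how the preparations differ, or give age, dose or time. Whether the replicates of a group come from different mice is not stated, and if they do not, the p-values cover technical spread only.

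Heat shock proteins are chaperones, which bind unfolded or damaged proteins and help them refold or pass to degradation. HSP70 proteins hold and release clients in an ATP cycle, J-domain proteins such as Dnajb1 load clients onto them, and nucleotide exchange factors such as Hsph1 and Bag3 reset the cycle. HSP90 finishes the folding of kinases and steroid receptors, small heat shock proteins such as Hspb1 keep unfolded proteins soluble, and Hspd1 with Hspe1 forms the folding chamber of mitochondria. Many of these genes are switched on by heat shock factor 1, which binds repeats of the unit nGAAn in their promoters.

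The depth was 53083002 to 70209229 counts per library, and 22915 genes passed the filter. Mitochondrial genes took 2.31% to 3.18% of the counts, and 8 alveolar type 2 markers, which define lung tissue, summed to 9343 to 17844 FPKM. Among the treated libraries, MSC replicate 3 stood apart on the second principal component (13.5% of variance). It lay at 45.9, against -10.6 and -43.8 for MSC replicates 1 and 2 and -52 to -48.8 for tpMSC. Control (20.1 to 38.8) and ALI (15.7 to 28.2) lay on its side. On the first component (37.6%) it lay at 35.4, near MSC replicate 2 (26.9), with MSC replicate 1 at -1.98. Its mean correlation with its own group was 0.9653, against 0.9709 and 0.9692 for MSC replicates 1 and 2. Within tpMSC, replicate 3 lay at 7.89 on the first component, against -25.5 and -29.1 for replicates 1 and 2. The labels do not show whether MSC replicate 3 was handled or labelled differently. Comparisons of the 10 chaperones are therefore given with and without it. In lung tissue as a whole, fewer cells of a type and less RNA per cell cannot be told apart. Levels below are deposited FPKM (fragments scaled to transcript length and library size).

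Hspa1a and Hspa1b, the stress-inducible HSP70 genes, had the widest range of the 10. Hspa1a (ENSMUSG00000091971, chromosome 17, 34969190 to 34972156, minus strand) and Hspa1b (ENSMUSG00000090877, chromosome 17, 34956436 to 34959238, minus strand) are single-exon genes (GRCm38). Their coding sequences are identical at 1915 of 1923 aligned bases. How reads were divided between them is not given, so their separate values are uncertain, and their summed counts were tested as well. The promoter stretches of both are shown because they are the same in all 80 bases printed and hold an inverted pair of heat shock units, in capitals (RefSeq sequences, GRCm38.p6, written 5′ to 3′ along the gene, 130 to 51 bases before the start).
Hspa1a, chr17:34972207-34972286, minus strand: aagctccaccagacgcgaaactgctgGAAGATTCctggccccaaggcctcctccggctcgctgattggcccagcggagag
Hspa1b, chr17:34959289-34959368, minus strand: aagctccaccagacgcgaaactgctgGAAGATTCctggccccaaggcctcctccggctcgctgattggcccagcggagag

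Hspb1 and Hspe1 are shown because their stretches hold more such units. Hspb1 has a pair of separate motifs within 80 bases (140 to 61 before its start). Hspe1 lies head to head with Hspd1, its partner in the mitochondrial chaperonin, and the piece printed is 93 to 68 bases before the RefSeq start of Hspe1. It is short because it overlaps an annotated exon of Hspd1. On the other strand the same run precedes only one of the RefSeq starts of Hspd1, the one that lies inside the gene span given below. The Hspd1 window at the start of that span overlaps the Hspe1 window by 4 bases and holds no match.
Hspb1, chr5:135887779-135887858, plus strand: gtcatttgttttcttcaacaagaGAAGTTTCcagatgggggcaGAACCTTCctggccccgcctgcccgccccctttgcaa
Hspe1, chr1:55088055-55088080, plus strand: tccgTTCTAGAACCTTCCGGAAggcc

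The motif searched was GAANNTTC or TTCNNGAA, each of which reads the same on both strands, in windows from 250 bases before to 50 after each start. Windows were matched for 8 of the 10 genes, Hsp90aa1 and Hspa8 being the others. These 8 genes have 11 windows, since some have several starts. The motif was found in 8 of the 11 windows, from 7 genes, Dnajb1 having none, and in 15.1% of all 32851 windows. The 11 windows are not independent: those of Hspa1a and Hspa1b are identical at 296 of 300 bases, and Hspd1 and Hspe1 share their stretch. The Hsph1 windows overlap and hold the same matches. A longer motif of alternating units, GAANNTTCNNGAA or TTCNNGAANNTTC, which contains the first, was found in 4 of the 11 windows, from Hspd1, Hspe1 and Hsph1, and in 0.603% of all windows. The Hspd1 and Hspe1 matches are the same run. The Hsph1 match is 1 site in overlapping windows and lies after the start, at bases 37 to 49 or 16 to 28. These are matches of letters, and binding of any factor was not measured.

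Hspa1a stood at 1.62, 1.79 and 2.44 FPKM in Control, 13.30, 21.98 and 16.68 in ALI, 11.16, 9.46 and 81.96 in MSC, and 36.81, 100.59 and 64.23 in tpMSC. Hspa1b stood at 2.20, 1.98 and 2.46 FPKM in Control, 18.96, 29.35 and 21.15 in ALI, 14.72, 13.27 and 116.55 in MSC, and 46.69, 138.98 and 86.65 in tpMSC. Both genes were lowest in the 3 Control libraries and highest in tpMSC replicate 2. MSC replicates 1 and 2 lay below all 3 ALI libraries, while MSC replicate 3 lay within the tpMSC range. From the lowest to the highest library, Hspa1b spanned 70.2-fold and Hspa1a 62.1-fold. The ratio of Hspa1b to Hspa1a was 1.01 to 1.43 in all 12 libraries.

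Hspa8 (ENSMUSG00000015656, chromosome 9, 40800984 to 40810087, plus strand), the constitutive HSP70 of the cytosol, was the most abundant of the 10 by FPKM in every group. It stood at 137.69, 118.14 and 130.64 FPKM in Control, 257.34, 236.50 and 267.80 in ALI, 210.14, 236.44 and 308.38 in MSC, and 277.22, 348.32 and 367.82 in tpMSC. Control and ALI did not overlap, and neither did ALI and tpMSC. MSC replicate 2 lay just under the lowest ALI library. The processed pseudogene Gm15459, which is 99.74% identical to Hspa8 over 1941 bases, was listed at 212.8 ± 18.8 FPKM in Control and 524.3 ± 94.7 in tpMSC (SD, n = 3 each). It stood above Hspa8 itself in all 12 libraries, so much of the Hspa8 signal may be counted there. Adding its counts to Hspa8 changed no call. The summed FPKM of Hspa1a and Hspa1b was 2.77% to 3.75% of that of Hspa8 in Control and 12.5% to 21.7% in ALI. It was 12.3% and 9.61% in MSC replicates 1 and 2, 64.4% in MSC replicate 3, and 30.1%, 68.8% and 41% in tpMSC. These percentages leave out the signal listed for Gm15459 and would be lower with it added to Hspa8.

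Hsph1 (ENSMUSG00000029657, chromosome 5, 149614287 to 149636376, minus strand) codes for an HSP110 protein, an exchange factor for HSP70 that also helps to dissolve aggregates. It stood at 5.77, 4.44 and 5.60 FPKM in Control, 10.74, 10.90 and 11.64 in ALI, 10.37, 10.43 and 32.51 in MSC, and 20.04, 31.79 and 25.83 in tpMSC. MSC replicate 3 was the highest of all 12 libraries, and MSC replicates 1 and 2 lay just below the ALI range. Dnajb1 (ENSMUSG00000005483, chromosome 8, 83608193 to 83612653, plus strand), the J-domain partner of inducible HSP70, stood at 11.44, 10.91 and 11.91 FPKM in Control, 22.81, 21.84 and 21.78 in ALI, 16.14, 19.39 and 38.16 in MSC, and 30.29, 40.44 and 34.15 in tpMSC. Its order of groups was that of Hsph1, with MSC replicate 3 inside the tpMSC range. Bag3 (ENSMUSG00000030847, chromosome 7, 128523616 to 128546981, plus strand), which hands HSP70 clients to autophagy, stood at 12.93, 14.12 and 12.79 FPKM in Control, 14.66, 14.33 and 15.77 in ALI, 15.61, 16.94 and 20.59 in MSC, and 20.61, 28.26 and 26.16 in tpMSC. Control and ALI were close for Bag3, and the tpMSC libraries lay above all 9 others, although tpMSC replicate 1 exceeded MSC replicate 3 by little.

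Hsp90aa1 (ENSMUSG00000021270, chromosome 12, 110690605 to 110702728, minus strand), the inducible HSP90 of the cytosol, stood at 115.09, 105.07 and 115.70 FPKM in Control, 149.94, 154.34 and 141.53 in ALI, 134.98, 120.13 and 233.77 in MSC, and 179.25, 223.86 and 204.45 in tpMSC. As for Hsph1, MSC replicate 3 was the highest library and MSC replicates 1 and 2 lay between the Control and ALI ranges. The constitutive form, Hsp90ab1, went from 174.5 ± 6.28 FPKM in Control to 380.4 ± 65.4 in tpMSC (SD, n = 3 each), and the ratio of Hsp90aa1 to Hsp90ab1 lay between 0.471 and 0.721 in all 12 libraries.

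Hspb1 (ENSMUSG00000004951, chromosome 5, 135887919 to 135889563, plus strand), the small heat shock protein known in mouse as HSP25, had another order. It stood at 50.37, 46.46 and 38.80 FPKM in Control, 29.44, 36.49 and 33.02 in ALI, 38.95, 46.02 and 72.17 in MSC, and 72.22, 132.15 and 83.91 in tpMSC. The 3 ALI libraries were the lowest of the 12, MSC replicates 1 and 2 lay inside the Control range, and MSC replicate 3 was just below the lowest tpMSC library. A processed pseudogene, Hsp25-ps1, is 99.36% identical to Hspb1 over 630 bases and was listed at 4.213 ± 0.407 FPKM in Control and 9.38 ± 4.9 in tpMSC (SD, n = 3 each). Adding its counts to Hspb1 changed no call.

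The mitochondrial chaperonin Hspd1 (HSP60; ENSMUSG00000025980, chromosome 1, 55077835 to 55088243, minus strand) and its lid Hspe1 (HSP10; ENSMUSG00000073676, chromosome 1, 55088132 to 55091307, plus strand) had the smallest ranges. Hspd1 stood at 44.44, 42.02 and 45.20 FPKM in Control, 64.73, 61.66 and 64.14 in ALI, 54.45, 60.47 and 71.63 in MSC, and 65.91, 82.77 and 78.51 in tpMSC. Hspe1 stood at 19.42, 18.62 and 22.25 FPKM in Control, 28.18, 28.40 and 23.47 in ALI, 20.94, 24.42 and 30.53 in MSC, and 31.55, 37.77 and 29.93 in tpMSC. For both genes Control was below ALI and ALI below tpMSC without overlap, and MSC replicate 3 lay within the tpMSC range. The annotated spans of these genes overlap, and the strand setting of the counting is not given. The ratio of Hspd1 to Hspe1 was 2.03 to 2.73, with no group apart from the others. From lowest to highest library, Hspd1 spanned 1.97-fold and Hspe1 2.03-fold.

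**Figure D1:**
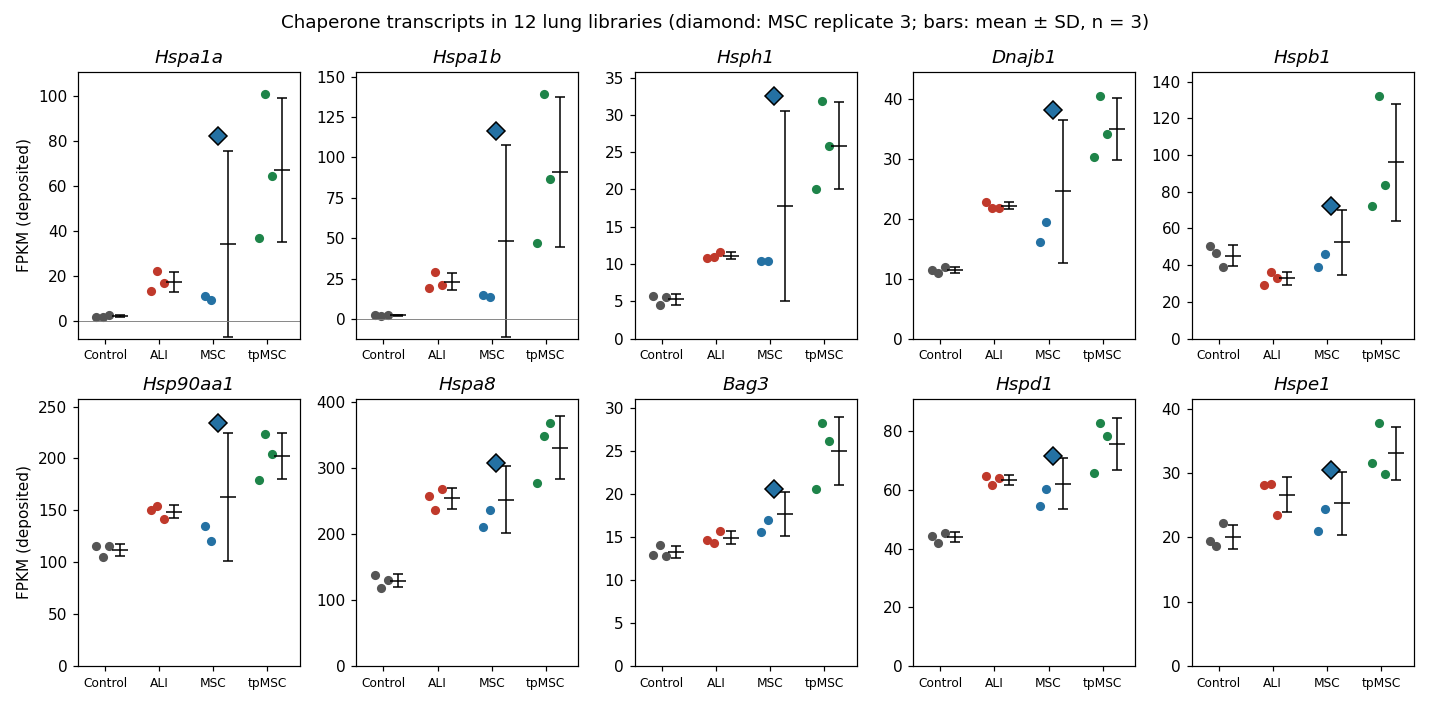
Deposited FPKM of the 10 chaperone genes in each of the 12 libraries, 1 panel per gene with its own axis; points are libraries, the diamond is MSC replicate 3, and bars are mean ± SD (n = 3), which reach below 0 for Hspa1a and Hspa1b in MSC. The Control mean was lowest for every gene but Hspb1, tpMSC lay above ALI for all 10, and MSC replicate 3 lay above MSC replicates 1 and 2 for all 10.

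In Control lung the order of mean FPKM was Hspa8 (128.8), Hsp90aa1 (112), Hspb1 (45.21), Hspd1 (43.89), Hspe1 (20.1), Bag3 (13.28), Dnajb1 (11.42), Hsph1 (5.27), Hspb1 and Hspd1 overlapping between libraries, and last Hspa1b (2.213) and Hspa1a (1.95), which overlapped too. In tpMSC, Hspa1b reached 90.77 ± 46.3 and Hspa1a 67.21 ± 32 FPKM (SD, n = 3 each), beside Hspb1 at 96.09 ± 31.8 and Hspd1 at 75.73 ± 8.77, and these 4 ranges overlapped. Together the 10 genes took 0.136% to 0.151% of all counts in Control and 0.242% to 0.247% in ALI. Their share was 0.209%, 0.217% and 0.386% in MSC and 0.303%, 0.44% and 0.389% in tpMSC.

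The first comparison asked what the injury did to these genes. In ALI lungs 7 of the 10 chaperones rose and none fell at a Benjamini-Hochberg adjusted p under 0.05, while 39.8% of all tested genes were called and 20.2% were called higher and 19.6% lower. The inducible HSP70 genes rose most, Hspa1b from 2.213 ± 0.24 to 23.15 ± 5.48 FPKM (SD, n = 3 per group), or by 3.45 ± 0.77 (SE) on the log2 scale (adjusted p = 0.00382), and Hspa1a from 1.95 ± 0.433 to 17.32 ± 4.38, or by 3.21 ± 0.75 (adjusted p = 0.00501). Summed as 1 feature, they rose by 3.34 ± 0.75 (SE) on the log2 scale (adjusted p = 0.00408). Hspa8 went up by 1.04 ± 0.15 (SE, adjusted p = 2.00e-04), Dnajb1 by 1.02 ± 0.25 (adjusted p = 0.00706) and Hsph1 by 1.13 ± 0.37 (adjusted p = 0.0302), each about doubling in level. Both chaperonin genes rose, Hspd1 by 0.59 ± 0.11 (adjusted p = 0.00118) and Hspe1 by 0.47 ± 0.14 (adjusted p = 0.0215).

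Hsp90aa1, Bag3 and Hspb1 were not called in ALI. The log2 difference was 0.47 ± 0.20 (SE) for Hsp90aa1 (adjusted p = 0.0843), 0.23 ± 0.13 for Bag3 (adjusted p = 0.184) and -0.39 ± 0.25 for Hspb1 (adjusted p = 0.238). Without overlap between the libraries, 9 members were higher and Hspb1 was lower in ALI, against 23.8% and 31.8% of all genes. The median log2 difference of the 10 was 0.81, against -0.02 over all genes tested. Hsph1 lost its call when any 1 Control or ALI library was left out (adjusted p = 0.0585 to 0.101), and Hspe1 without Control replicate 1 or 2 or ALI replicate 1 or 2 (adjusted p = 0.0661 to 0.0842). Hsp90aa1 gained one without MSC replicate 2 or 3 (adjusted p = 0.0474 and 0.00191), which enter the shared estimate of spread.

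The next question was whether MSC treatment moved them from their ALI levels. No chaperone was called between MSC and ALI, where 10.2% of all tested genes were. By edgeR, 1 of the 10, Hspb1, had an unadjusted p under 0.05 (log2 difference 0.62 ± 0.25 SE, adjusted p = 0.147), as had 24.6% of all genes. DESeq2 called none either, and 16.6% of all genes. The MSC means were close to ALI for Hspd1 (62.18 ± 8.72 against 63.51 ± 1.63 FPKM; SD, n = 3) and Hspa8 (251.7 ± 50.9 against 253.9 ± 15.9). For Hspa1b the mean was 48.18 ± 59.2 FPKM, an SD larger than the mean.

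Leaving out MSC replicate 3 turned 5 of the differences from ALI to the other side of 0. The log2 difference went from 0.94 to -0.80 for Hspa1a, from 1.02 to -0.78 for Hspa1b, from 0.63 to -0.15 for Hsph1, from 0.10 to -0.37 for Dnajb1 and from 0.09 to -0.27 for Hsp90aa1. None of the 10 was called without this library (9.07% of all genes were), the smallest adjusted p being that of Dnajb1 (0.090). The number of members with a positive difference fell from 7 to 2, Hspb1 and Bag3. So the direction for these 5 genes rests on MSC replicate 3.

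MSC replicate 3 was above both other MSC libraries for all 10 chaperones, by unequal amounts. In log2 CPM (counts scaled to library size) its distance above their mean was 3.08 for Hspa1b, 3.01 for Hspa1a, 1.66 for Hsph1, 1.13 for Dnajb1 and 0.34 for Hspd1. Hspa1b and Hspa1a thereby stood at the 99.39 and 99.35 percentiles of all 22915 genes ranked by this distance, Hsph1 at 97.87 and Hspd1 at 81.01. The median distance over all genes was 0.01 and the highest 1% began at 2.37. MSC replicates 1 and 2 both lay below the ALI range for 7 members, Hspa1a, Hspa1b, Hsph1, Dnajb1, Hsp90aa1, Hspa8 and Hspd1, and above it for Hspb1.

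**Figure D2:**
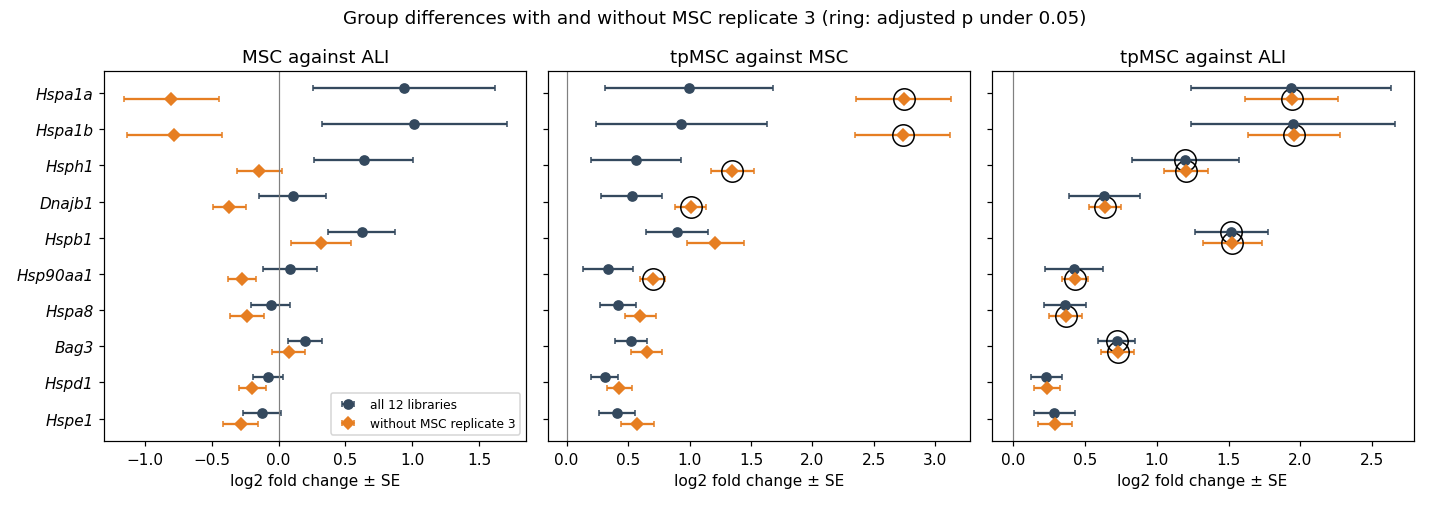
Log2 fold change ± SE of each chaperone in 3 comparisons, fitted with all 12 libraries (circles) and without MSC replicate 3 (diamonds); rings mark adjusted p under 0.05. The circles and diamonds of Hspa1a and Hspa1b lie on opposite sides of 0 in MSC against ALI (0.94 and -0.80 for Hspa1a), while in tpMSC against ALI the values stay (1.93 and 1.94) and the errors narrow.

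In tpMSC lungs all 10 chaperones were higher than in ALI without overlap between libraries, as were 21.2% of all genes. At an adjusted p under 0.05, 3 of the 10 rose, with 23.1% of all genes called and 11.6% called higher. Hspb1 rose from 32.98 ± 3.53 to 96.09 ± 31.8 FPKM (SD, n = 3 per group), by 1.52 ± 0.25 (SE) on the log2 scale (adjusted p = 0.00149). Bag3 rose from 14.92 ± 0.754 to 25.01 ± 3.95 FPKM (log2 0.72 ± 0.13 SE, adjusted p = 0.00219) and Hsph1 from 11.09 ± 0.48 to 25.89 ± 5.88 (log2 1.20 ± 0.37 SE, adjusted p = 0.0373). Hspb1 and Bag3 were not called in ALI against Control, a comparison that uses the same ALI libraries, as do all values set side by side for these comparisons below.

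The HSP70 genes had larger differences that did not pass, 1.93 ± 0.70 (SE) for Hspa1a (adjusted p = 0.0671) and 1.95 ± 0.71 for Hspa1b (adjusted p = 0.0694). The remaining log2 differences were 0.63 for Dnajb1, 0.42 for Hsp90aa1, 0.36 for Hspa8, 0.29 for Hspe1 and 0.23 for Hspd1, with adjusted p from 0.0897 to 0.179. Leaving out MSC replicate 3, whose distance from the other MSC libraries enters the shared spread, gave 8 called of the 10 (24.1% of all genes): Hspa1a (adjusted p = 0.00155), Hspa1b (0.00147), Dnajb1, Hsp90aa1 and Hspa8 besides the 3 above. Without MSC replicate 1 there were 6 called (22.6% of all genes), without MSC replicate 2 there were 5 (24.6%), and a fit of the tpMSC and ALI libraries alone called 7 (23.7%). Hsph1 lost its call without any 1 ALI library, Control replicate 1 or 3, or tpMSC replicate 2 or 3, or with no filter on low counts (adjusted p = 0.0504 to 0.122), and Hspa8 gained one without tpMSC replicate 1 (adjusted p = 0.0477).

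Both treatments were then compared with each other. All 10 log2 differences of tpMSC from MSC were positive, from 0.31 for Hspd1 to 1.00 for Hspa1a, and none was called, in a comparison that called 7 genes of all (0.0305%). By edgeR, 5 of the 10 had an unadjusted p under 0.05, as had 12.6% of all genes. DESeq2 called 2 of the 10, Hspb1 (adjusted p = 0.0123) and Bag3 (adjusted p = 0.015), and 3.08% of all genes. These were also the only members whose tpMSC libraries all lay above the 3 MSC libraries, as for 5.18% of all genes. Hspb1 was at 52.38 ± 17.5 FPKM in MSC and 96.09 ± 31.8 in tpMSC (SD, n = 3 each), and Bag3 at 17.71 ± 2.58 and 25.01 ± 3.95.

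Without MSC replicate 3, 5 of the 10 were called higher in tpMSC than in MSC, among 18 genes called in all (0.0762%). The log2 difference was then 2.74 ± 0.39 (SE) for Hspa1a and 2.73 ± 0.39 for Hspa1b (adjusted p = 0.0449 each), 1.35 ± 0.18 for Hsph1 (adjusted p = 0.0356), 1.01 ± 0.13 for Dnajb1 (adjusted p = 0.0287) and 0.70 ± 0.10 for Hsp90aa1 (adjusted p = 0.0484). Leaving out any other single library called none of the 10, though 386 genes of all (1.63%) were called without tpMSC replicate 3. Whether these 5 genes are called between tpMSC and MSC therefore rests on MSC replicate 3. That library was the highest of the MSC group for all 10, so leaving it out lowers their MSC means and narrows their spread. The 5 calls follow in part from that choice and are not separate support for a difference.

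Against Control, all 10 chaperones rose in tpMSC without MSC replicate 3 (16.7% of all genes called, 9.54% called higher). All 10 rose with all libraries too, where 15.9% of all genes were called and 9.1% called higher. The fold was 42.1 for Hspa1b (log2 fold change 5.40 ± 0.84 SE, adjusted p = 0.00225), 35.4 for Hspa1a, 5.04 for Hsph1 and 3.14 for Dnajb1. Hspa8 rose 2.64-fold, Hspb1 2.18-fold, Bag3 1.93-fold, Hsp90aa1 1.86-fold, Hspd1 1.77-fold and Hspe1 1.69-fold, with adjusted p from 3.80e-04 to 0.013. Hsp90aa1 lost its call without Control replicate 2 (adjusted p = 0.0557). In MSC, 7 of the 10 rose over Control (18.7% of all genes were called, 10.7% higher), with Hspa1b 22-fold and Hspa1a 17.8-fold up.

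Without MSC replicate 3 the folds of MSC over Control for both HSP70 genes were smaller, with log2 values of 2.66 in place of 4.46 for Hspa1b and 2.41 in place of 4.15 for Hspa1a, and both kept their call. Hsph1 (0.99 in place of 1.77), Dnajb1 (0.64 in place of 1.12), Hspa8 (0.80 in place of 0.98) and Hspd1 (0.39 in place of 0.52) kept theirs too. In that fit 13.7% of all genes were called and 8.41% called higher. Bag3, called with all libraries (0.43 ± 0.13 SE, adjusted p = 0.0382), was not called without MSC replicate 3 (adjusted p = 0.14) or MSC replicate 2, any 1 Control library, or ALI replicate 1 or 3, or with no filter on low counts (adjusted p = 0.0535). Hsp90aa1, at 0.56 with all libraries and 0.19 without MSC replicate 3, gained a call without MSC replicate 1 or 2 (adjusted p = 0.0443 and 0.028), and Hspe1 without MSC replicate 1 (adjusted p = 0.0357). The Hspb1 difference from Control was 0.23 with all libraries and -0.08 without MSC replicate 3, and was not called either way.

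Other genes of protein folding were counted from 9 lists, beside 20.2% of all genes called higher and 19.6% called lower in ALI against Control, and 11.6% and 11.5% in tpMSC against ALI. The cytosolic chaperonin containing TCP1, which folds actin and tubulin, rose in ALI as a whole (8 of 8 genes), with Cct6a from 34.96 ± 1.91 to 50.93 ± 1.25 FPKM and Cct3 from 12.65 ± 0.223 to 19.88 ± 1.67 (SD, n = 3 each). All 11 endoplasmic reticulum chaperones rose as well, among them Hspa5 (BiP), from 99.03 ± 3.32 to 218.7 ± 21.4 FPKM, and the disulfide isomerase Pdia6, from 70.55 ± 3.25 to 111.3 ± 8.98. None of these 19 genes was called between tpMSC and ALI, with median log2 differences of -0.10 for the chaperonin and -0.01 for the endoplasmic reticulum list, beside 0.68 for the 10 heat shock chaperones and 0.01 for all genes. Against Control, 8 of 8 and 10 of 11 were called higher in tpMSC, beside 9.1% of all genes. Without MSC replicate 3, 8 of 8 and 11 of 11 were, beside 9.54%. In MSC against ALI, 1 gene of each list was called lower, Cct6a (-0.26, adjusted p = 0.0313) and Pdia6 (-0.33, adjusted p = 0.0436), beside 5.21% of all genes. Without MSC replicate 3, Dnajb9 was called lower as well (adjusted p = 0.0419), in a fit that called 9.07% of all genes in either direction.

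Of 14 other HSP90 proteins and co-chaperones, 4 rose and 1 fell in ALI, none was called between MSC and ALI, and 3 rose in tpMSC over ALI. The 5 called of 14 in ALI are near the share over all genes (39.8%). The same holds for the further HSP70 co-chaperone, small heat shock and heat shock factor lists below. The J-domain and mitochondrial lists lie under that share. Without MSC replicate 3 the counts of these 14 were 5 and 1 in ALI and 4 in tpMSC over ALI. In that fit 2 of the 14, Chordc1 and Fkbp4, were called higher in tpMSC than in MSC (adjusted p = 0.0498 and 0.0449), beside 0.0762% of all genes. With all libraries neither was called (adjusted p = 0.493 and 0.132). The summed FPKM of this list was 627.5 in MSC replicate 3, against 471.6 and 467.2 in MSC replicates 1 and 2. These 2 calls follow in part from leaving that library out and are not separate support for a difference. Stip1, which links HSP70 to HSP90, rose in ALI from 29.65 ± 1.39 to 56.47 ± 5.77 FPKM, and Tomm34, a co-chaperone of mitochondrial import, fell from 11.73 ± 0.304 to 8.817 ± 0.0153 (SD, n = 3 each). Hsp90ab1 rose in tpMSC over ALI by 0.64 ± 0.16 (SE) on the log2 scale (adjusted p = 0.0146). Of 9 other HSP70 and HSP110 genes 4 rose and 2 fell in ALI, with Hspa13 up by 0.77 and Hspa12a down at -0.90, and in tpMSC over ALI these 2 were called the opposite way (-0.62 and 0.77), among 3 rises and 1 fall (4 and 1 without MSC replicate 3). Both were called that way in MSC over ALI too, Hspa13 at -0.41 (adjusted p = 0.0297) and Hspa12a at 0.59 (adjusted p = 0.021).

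Of 14 other J-domain genes, 2 rose and 1 fell in ALI, with Dnajc2 at 0.61 and Dnajc7 at -0.28 on the log2 scale, and 3 rose and 2 fell in tpMSC over ALI. Without MSC replicate 3 these counts were 3 and 2 in ALI, and 4 and 1 in tpMSC over ALI, where Dnajc2 lost its call (adjusted p = 0.0551) and Dnaja1 gained one (adjusted p = 0.00243). Of 11 further HSP70 co-chaperones 2 rose and 3 fell in ALI, among the falls Bag6 (-0.30) and Bag1 (-0.24), and 2 rose and 2 fell without MSC replicate 3. In tpMSC over ALI, 2 of these 11 rose and none fell. Of 9 small heat shock genes listed, 6 could be tested: 1 rose and 2 fell in ALI (2 and 2 without MSC replicate 3), and 3 rose in tpMSC over ALI. Cryab, the lens and muscle chaperone αB-crystallin, was at 120.7 ± 2.23 FPKM in Control, 72.11 ± 5.41 in ALI and 109.6 ± 3.06 in tpMSC (SD, n = 3 each), with -0.68 in ALI (adjusted p = 4.32e-05) and 0.58 in tpMSC over ALI. Cryab was also called higher in MSC over ALI (0.30, adjusted p = 0.0332), though not without MSC replicate 3 (adjusted p = 0.0503). Hspb8, the partner of Bag3, rose by 0.32 in ALI and by 0.26 in tpMSC over ALI. Of 9 genes of mitochondrial protein folding and proteolysis 1 rose and 1 fell in ALI, Yme1l1 (0.26) and Lonp1 (-0.24), beside the rise of Hspd1 and Hspe1.

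Hsf1, the gene of heat shock factor 1, differed by less than most chaperones. It was at 6.223 ± 0.321 FPKM in Control, 4.98 ± 0.236 in ALI and 6.16 ± 0.25 in tpMSC (SD, n = 3 each), a fall of -0.26 in ALI (adjusted p = 0.0356) and a rise of 0.28 in tpMSC over ALI (adjusted p = 0.0394). Of the 8 genes on its list 2 rose and 2 fell in ALI, Hsf1 and Hsf4. Ier5, which promotes the active form of heat shock factor 1, rose from 16.52 ± 0.73 to 44.67 ± 2.2 FPKM (adjusted p = 2.68e-06), and Dedd2 from 5.103 ± 0.596 to 11.3 ± 1.49 (log2 fold change 1.21, adjusted p = 3.98e-04). Ier5 fell again in tpMSC, to 30.3 ± 1.13 FPKM (-0.58 against ALI, adjusted p = 0.00266), where the 10 chaperones were at or above their ALI levels. Ier5 was called lower in MSC against ALI as well (-0.86, adjusted p = 9.71e-04).

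**Figure D3:**
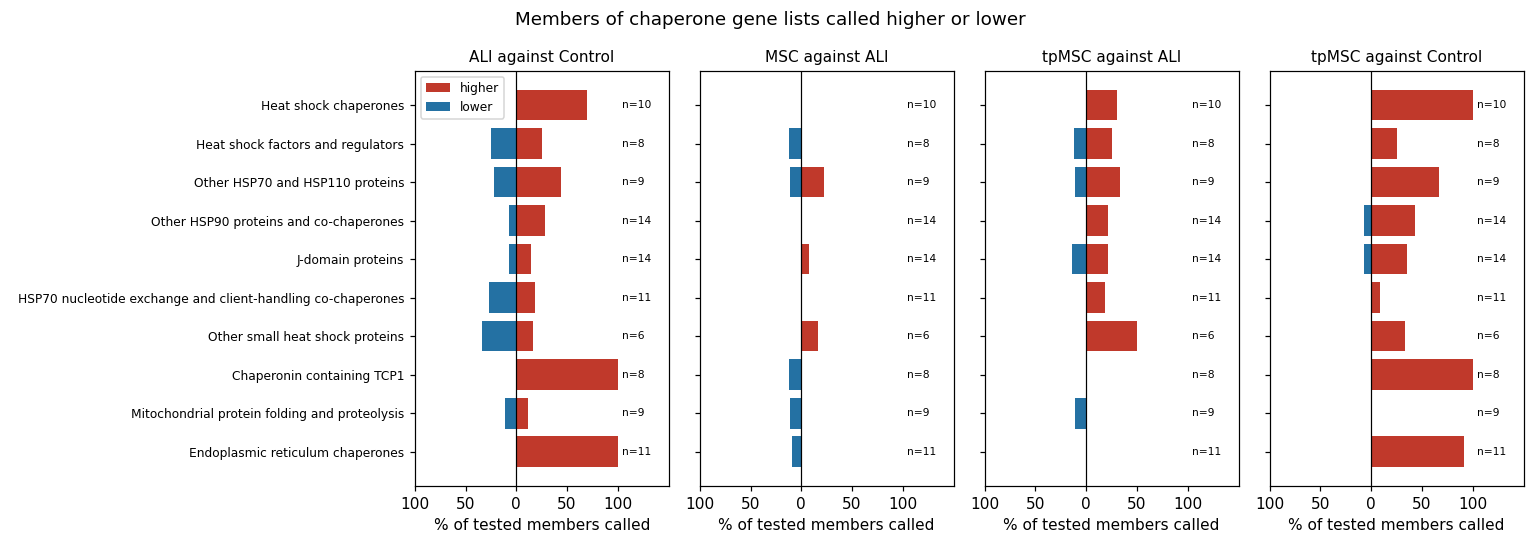
Percentage of the tested members of each folding gene list called higher (right) or lower (left) at adjusted p under 0.05 in 4 comparisons, with the number tested beside each bar. The endoplasmic reticulum (11 of 11) and TCP1 (8 of 8) lists were called higher throughout in ALI against Control and not at all in tpMSC against ALI, where 3 of the 10 heat shock chaperones were called.

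The genes with the most similar pattern to Hsph1 and Hspd1 over the 12 libraries were taken from 14569 genes with a mean of at least 1 FPKM. For Hsph1 they were Dnaja1, a J-domain partner of HSP70 (r = 0.98), Gm15542, a processed pseudogene 99.41% identical to Dnaja1 over 1194 bases (0.972), Chordc1, an HSP90 co-chaperone (0.972), Ctrl, a chymotrypsin-like protease (0.971), and Cacybp (0.969). For Hspd1 they were Larp1b (0.987), Stip1 (0.983), Gm15459, the Hspa8 copy (0.98), Cacybp (0.972) and Timeless (0.971). Dnaja1 went from 19.97 ± 1.97 FPKM in Control to 46.86 ± 7.82 in tpMSC (SD, n = 3 each), with 24.63, 26.22 and 50.25 in MSC. Among the 10 chaperones the 45 pairwise correlations ran from 0.5, for Hspb1 with Hspa8, to 0.998, with a median of 0.91. These correlations describe 12 libraries that share groups and 1 library, MSC replicate 3, above the rest of its group for all 10.

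Markers of cell types and of acute activation were summed beside the chaperones. The summed FPKM of the 10 chaperones was 363.6 to 401 in Control, 610.1 to 617 in ALI, 527.5, 557 and 1006 in MSC, and 780.6 to 1165 in tpMSC. The sum of 15 neutrophil markers was 183 to 266.2 FPKM in Control, 5651 to 6477 in ALI, 1124, 1708 and 1723 in MSC, and 861.6 to 1039 in tpMSC, so MSC replicate 3 was close to MSC replicate 2. The 15 immediate early genes, which respond within minutes to many stimuli, summed to 478 to 579.6 FPKM in Control, 758.9 to 819.2 in ALI, 430.2 to 450.2 in MSC and 465.3 to 484.9 in tpMSC. They were called higher in ALI (10 of 15, beside 20.2% of all genes) and lower in tpMSC against ALI (10 of 15, beside 11.5%), and MSC replicate 3, at 450.2, was near its group.

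Smooth muscle and pericyte markers were among the lists that moved with the chaperones in tpMSC. Their 7 genes summed to 80.91 to 122.7 FPKM in ALI, 139.1, 211.6 and 119.8 in MSC and 208.2 to 239.3 in tpMSC, and 6 of 7 were called higher in tpMSC than in ALI. In MSC replicate 3, where the chaperones were high, this sum was the lowest of the MSC group. The 12 endothelial markers summed to 1184 to 1250 FPKM in Control, 501.7 to 562.6 in ALI, 881.2, 713.5 and 610.2 in MSC, and 812.8 to 890.4 in tpMSC, with 9 of 12 called higher in tpMSC than in ALI. The 8 cardiac markers summed to 13.67 to 38.06 FPKM in Control, 13.42 to 18.66 in ALI, 40.86, 34.34 and 12.67 in MSC and 18.17 to 66.71 in tpMSC. In tpMSC against ALI, 4 of 7 airway epithelium and 5 of 8 alveolar type 1 markers were also called higher (1 of the latter lower). Of 13 macrophage and monocyte markers 7 were called lower and 3 higher, and of 8 T and B lymphocyte markers 3 were called lower. Over all genes, 11.6% were called higher and 11.5% lower in tpMSC against ALI. In every list at least 1 library had counts for each marker. The part of these cell types in the chaperone levels was not tested.

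**Figure D4:**
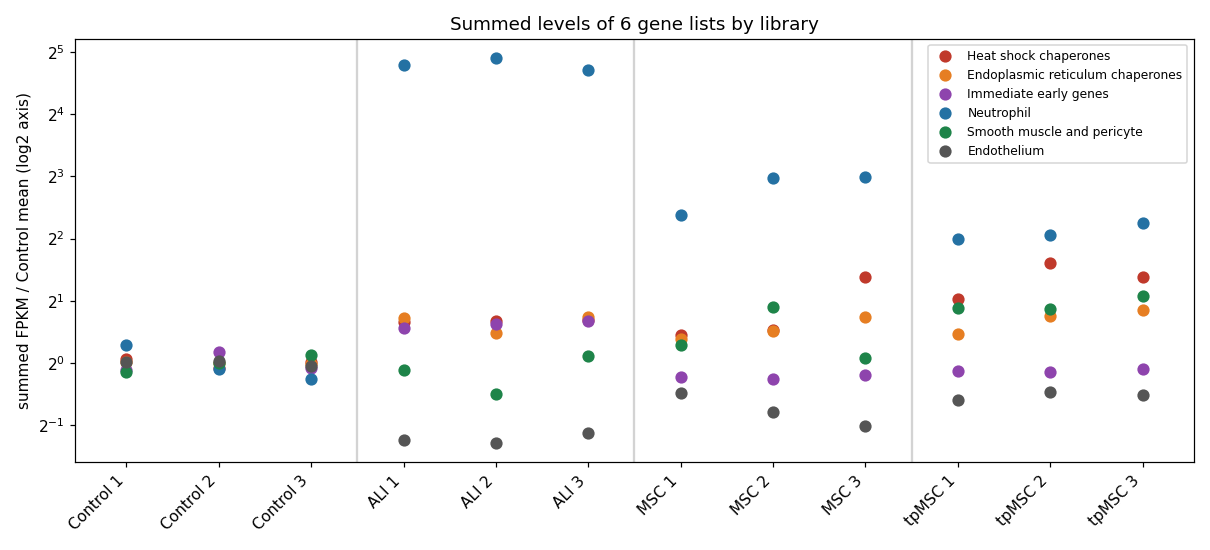
Summed FPKM of 6 gene lists in each library, divided by the mean of the Control libraries, on a log2 axis. The chaperone sum in MSC replicate 3 (1006 FPKM) lies with the tpMSC libraries (780.6 to 1165). Its neutrophil (1723) and immediate early (450.2) sums lie near that of at least 1 other MSC library. Its endoplasmic reticulum sum (1280, against 997.5 and 1096) was also the highest of the MSC group. Its endothelial (610.2, against 881.2 and 713.5) and smooth muscle (119.8, against 139.1 and 211.6) sums were the lowest.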

How the data were processed

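The deposited table of the authors holds raw counts and FPKM values for every gene and library, per the file headers. Per the submitters' processing notes, GRCm38 was the build, and StringTie 1.3.4d, HISAT2 2.0.4, cutadapt 1.9, edgeR and DESeq2 were among the tools. Which of them counted reads, and with what strand setting, is not given in these sources. Groups came from the sample titles. Counts were filtered with filterByExpr, scaled by TMM and modelled with 1 mean for each group across the 12 libraries by the quasi-likelihood test of edgeR 4.0.16 (R 4.3.3), with Benjamini-Hochberg adjustment over 22915 genes. Called means adjusted p under 0.05, and the SE is the log2 fold change over the square root of F. Levels are deposited FPKM. Correlations used log2 CPM (prior count 2). The processing was tested on simulated counts.

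The 10 genes and all lists were chosen with earlier results of these data known. Named list genes are the up to 2 with the smallest adjusted p in ALI against Control, plus genes set beside a member. The deposited gene positions differ from GRCm38 for all 10 members, so positions are those of GENCODE M21, matched by Ensembl ID, and promoters are RefSeq (GRCm38.p6). Alternatives were median-ratio size factors, no filter, DESeq2 1.42.0, a replicate block, only 2 groups per fit, each library left out, and Hspa1a and Hspa1b summed. Adding the counts of pseudogenes was chosen after seeing the data.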

Additional observations from a re-analysis of the deposited data

How the results depend on the processing

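Of 1050 recomputed differences of the 10 genes, 981 kept their direction and their side of the threshold, 33 gained a call, 27 lost one and 9 changed sign, none of the latter called. Median-ratio size factors changed no call. With no filter on low counts, Hsph1 lost its call in tpMSC against ALI (2 called of 10, 12% of all genes) and Bag3 in MSC against Control (6 called, 9.3% of all genes). Sign changes came from leaving out 1 MSC library. In MSC against ALI the log2 difference ran from -0.80 (without MSC replicate 3) to 1.39 (without MSC replicate 2) for Hspa1a, from -0.78 to 1.46 for Hspa1b and from -0.27 to 0.26 for Hsp90aa1 in the same way. It ran from -0.15 (without MSC replicate 3) to 0.92 (without MSC replicate 1) for Hsph1, from -0.37 to 0.34 for Dnajb1, from -0.24 to 0.0651 for Hspa8, from -0.20 to 0.0199 for Hspd1 and from -0.29 to 0.0060 for Hspe1. In MSC against Control, Hspb1 ran from -0.0833 to 0.41. With 1 library left out, the number called of 10 ran from 5 to 8 in ALI against Control, 0 to 0 in MSC against ALI, 2 to 8 in tpMSC against ALI, 0 to 5 in tpMSC against MSC, 6 to 9 in MSC against Control and 9 to 10 in tpMSC against Control. In the same order, the share of all genes called ran from 31.6% to 40.1%, 4.58% to 12.4%, 14.3% to 24.6%, 0% to 1.63%, 10.5% to 20.1% and 7.76% to 18%. With only the 2 groups compared, tpMSC against ALI called 7 in place of 3 (23.7% of all genes), and ALI against Control all 10, Hspb1 being lower (46.1% of all genes). DESeq2 called 2 in tpMSC against MSC in place of 0, with 602 genes in all in place of 7. The cause of these changes was not tested.

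With the replicate number as a block the counts were 7, 0, 3, 0, 7 and 10, as without it, in the order above, and no call changed. The shares of all genes called were then 38.7%, 9.17%, 22.1%, 0%, 17.5% and 14.6%. Over 18 pairs of libraries with the same number, the correlation of deviations ran from -0.108 to 0.104. Over 36 other pairs it ran from -0.0924 to 0.0953. Pairing by number was therefore not seen in these correlations, and 3 libraries per group are too few to exclude a weak one. The limits are 3 libraries per group, 1 MSC library far from the other MSC libraries on the second principal component and in several chaperones, and shared reads between near-identical copies.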
